A study of Mus musculus with 2 samples.

Results

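The genes described here are those of the T cell receptor: all features whose symbol begins with Tra, Trb, Trg or Trd followed by v, c or j. They numbered 266 of the 31253 features in the deposited tables. By role they were 130 alpha V segments (Trav), 35 beta V segments (Trbv), 7 gamma V segments (Trgv), 6 delta V segments (Trdv), 80 J segments, and 8 constant genes (Trac, Trbc1, Trbc2, Trdc and Trgc1 to Trgc4). The whole intestine of 2 mice was dissociated, and 1 droplet library, which reads the 3′ ends of transcripts, was sequenced from each. The RA library came from a wild-type mouse on standard chow, and the series' design text names collagen-induced arthritis (CIA) as that mouse's group. The butyrate library came from a wild-type mouse on a 1% butyrate diet, and the labels do not say whether it was arthritic. Strain, sex and age were not given. Each group is therefore 1 mouse, so no difference between the libraries could be tested, and every interval below is an exact 95% interval that covers counting error only.

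T cells assemble their receptor by joining V, D and J segments next to a constant gene, so each clone transcribes its own combination. Most T cells carry an alpha and a beta chain and recognise peptides on MHC molecules, usually with CD4 or CD8 as co-receptor, while a smaller lineage carries a gamma and a delta chain. The gut epithelium is unusually rich in the gamma delta lineage and in T cells with the CD8 alpha homodimer, and the gamma locus is built of separate cassettes, each with its own V and J segments and constant gene.

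Several members are near copies, and how far a read can separate them limits what their counts mean, so the stretches that tell the leading members apart are shown. All sequences are coding exons of GENCODE M21 transcripts on GRCm38, written 5′ to 3′. Reads of a 3′ library fall near the transcript end, and the bases after the third exon were not compared base by base. Of the first 3 exons, the third holds the most differences between the 2 beta constant genes. There 15 of 107 bases differ, shown in capitals, against 3 of 18 in exon 2 and 1 of 375 in exon 1. The stretch lies at chr6:41539229-41539335 for Trbc1 and chr6:41547772-41547878 for Trbc2, on the + strand, 237 and 192 bases before the annotated transcript end.
Trbc1: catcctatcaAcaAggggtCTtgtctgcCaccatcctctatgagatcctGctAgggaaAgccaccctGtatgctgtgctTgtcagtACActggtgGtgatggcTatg
Trbc2: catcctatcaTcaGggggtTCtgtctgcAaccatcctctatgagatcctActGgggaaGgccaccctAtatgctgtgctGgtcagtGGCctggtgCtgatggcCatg

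The gamma constant genes lie on chromosome 13. Over the whole of exon 1, Trgc1 and Trgc2 were 97.3% identical, whereas Trgc4 shared 82.1% with Trgc1.

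The last 90 bases of the V segments that led their families come next, since these bases adjoin the joint. Trbv12-2 (chr6:41119275-41119364, + strand) and Trbv12-1 (chr6:41113978-41114067, + strand) differ at 5 of 90 positions, as do Trgv2 (chr13:19336573-19336662, - strand) and Trgv1 (chr13:19340365-19340454, + strand). The differing bases are in capitals.
Trbv12-2: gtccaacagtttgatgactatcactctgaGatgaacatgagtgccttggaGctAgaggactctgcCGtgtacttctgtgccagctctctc
Trbv12-1: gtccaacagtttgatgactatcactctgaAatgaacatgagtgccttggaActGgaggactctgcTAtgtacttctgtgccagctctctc
Trgv2: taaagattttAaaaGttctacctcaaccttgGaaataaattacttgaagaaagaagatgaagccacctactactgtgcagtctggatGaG
Trgv1: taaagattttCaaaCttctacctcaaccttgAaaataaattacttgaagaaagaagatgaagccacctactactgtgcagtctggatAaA

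For 4 further segments named below, capitals mark the codon of the conserved cysteine at the edge of the third complementarity-determining region, the loop that the joint encodes. They are Trbv13-1 (chr6:41116379-41116468), Trav3-3 (chr14:53666417-53666506), Trgv6 (chr13:19190840-19190929) and Trdv4 (chr14:54075426-54075515), all on the + strand.
Trbv13-1: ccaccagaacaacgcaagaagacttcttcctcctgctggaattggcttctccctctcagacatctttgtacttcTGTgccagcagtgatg
Trav3-3: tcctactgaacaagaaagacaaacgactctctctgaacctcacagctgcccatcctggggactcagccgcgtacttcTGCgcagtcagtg
Trgv6: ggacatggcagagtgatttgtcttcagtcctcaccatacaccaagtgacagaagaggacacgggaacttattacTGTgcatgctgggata
Trdv4: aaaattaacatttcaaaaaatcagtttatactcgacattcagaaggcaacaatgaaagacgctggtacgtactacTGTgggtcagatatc

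Reads of 90 bases that lie wholly in a shared stretch cannot be assigned by sequence, and how the authors' counting treated them is not given in the sources used here. Such shared 90-base windows made up 31.3% of the Trbc1 transcript and 33.7% of the Trbc2 transcript. Among the 130 Trav segments, 106 shared at least 1 window with another member, whereas none of the 35 Trbv segments did. Counts of single Trav segments, and the split between Trbc1 and Trbc2, are therefore uncertain to that extent.

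T cells were gated by at least 2 UMIs of Cd3d, Cd3e and Cd3g together and no UMI of Cd79a, a B cell receptor component. A UMI (unique molecular identifier) marks 1 captured transcript molecule. The gate took 812 of 6909 kept barcodes in the RA library and 1461 of 8247 in the butyrate library, with median depths of 6027 and 6169 UMIs. The RA library reached lower depths, with gated cells from 646 UMIs upward against 2336 in the butyrate library. Within the gate there were 279 and 568 cells with a Cd4 UMI, 108 and 279 with a Cd8b1 UMI, 71 and 91 with Cd8a but no Cd8b1 UMI, and 110 and 129 with a Trdc UMI, RA first. These sets overlap, mainly because 22 RA and 17 butyrate cells had both Trdc and Cd8a without Cd8b1, and 271 and 427 gated cells entered none of the 4 sets. The 9 T cell markers were all detected in every set. They include Cd3d, Cd3e and Cd3g, on which the gate is built, so that result follows in part from the gate. Summed B cell markers stayed between 1.61 and 11.5 CPM (UMIs per 1000000 UMIs of the summed cells). Cd79a is among these markers, and since the gate excludes any UMI of it, that gene could not add to the sum. None of the 27 barcodes shared by the libraries was a gated cell. Stromal markers were unequal, at 638.5 CPM in the RA and 196.6 in the butyrate gated cells, and so were plasma cell markers, at 42.3 and 361.4; their part in the results was not tested.

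At least 1 receptor UMI was seen in 98.6% of RA and 99.7% of butyrate gated cells. Of the 266 members, 95 were detected in the RA and 105 in the butyrate gated cells, 78 in both and 122 in either. Nearly all of the signal came from constant genes. Trbc1 and Trbc2 together gave 8853 RA and 18517 butyrate UMIs, Trac 1817 and 3876, Trdc 791 and 809, and the Trgc genes 848 and 802. V segments gave far fewer, at 137 and 275 UMIs for Trav, 133 and 322 for Trbv, 132 and 144 for Trgv and 40 and 77 for Trdv. Of the J segments only Traj (29 and 42 UMIs) and Trgj (4 and 0) were seen, and the Trbj and Trdj segments were at 0 in both libraries. The recombinase genes that cut the segments were almost silent, with 1 and 0 UMIs of Rag1 and none of Rag2.

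Only 25 of the 266 members were seen in at least 20 gated cells of both libraries together. The share of gated cells with a UMI differed by more than 1.5-fold between the libraries for 10 of these 25, with 4 higher and 6 lower in the butyrate library. Among all 12660 features seen in that many cells, 12.5% passed the same fold, 3.72% higher and 8.74% lower. The 4 that were higher were the beta V segments Trbv12-1, Trbv12-2, Trbv13-1 and Trbv29. Trbv12-1 and Trbv29 were seen in 5 RA cells each, and the intervals of their ratios include 1. A UMI of any Trbv segment was itself found in 14.3% of RA and 18.5% of butyrate gated cells, a ratio of 1.30 (1.04 to 1.63). Trbv31, whose ratio has an interval that includes 1, was among the 6 that were lower. Trdc, Trgc1, Trgc2, Trgc4 and Trgv2, all gamma or delta genes, made up the other 5. Those 5 are not separate observations, since many of the same cells carry several of them. Trgv1 and Trdv4, also gamma or delta genes among the 25, were not past the fold, at ratios of 1.22 and 1.11.

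Trac (chr14:54220521-54224206, + strand, GRCm38) encodes the constant part of the alpha chain. Its level in all gated cells was 320.3 CPM (305.8 to 335.4) in the RA library and 363.8 (352.4 to 375.4) in the butyrate library, a ratio of 1.14 (1.07 to 1.20). A Trac UMI was found in 71.8% and 78.8% of gated cells. In B cells of the same libraries, which make no T cell receptor, the share was 0.161% and 0.152% at median depths of 4241 and 4618 UMIs. Trac was highest in the Cd4 cells, at 424.6 CPM in RA and 481.0 in butyrate. The Cd8b1 cells followed at 383.6 and 352.6, then the cells with Cd8a but no Cd8b1 at 248.9 and 284.4. The order of the sets was thus the same in both libraries, although the intervals of the Cd4 and Cd8b1 sets overlapped in RA (395.5 to 455.2 against 345.0 to 425.3).

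**Figure D1:**
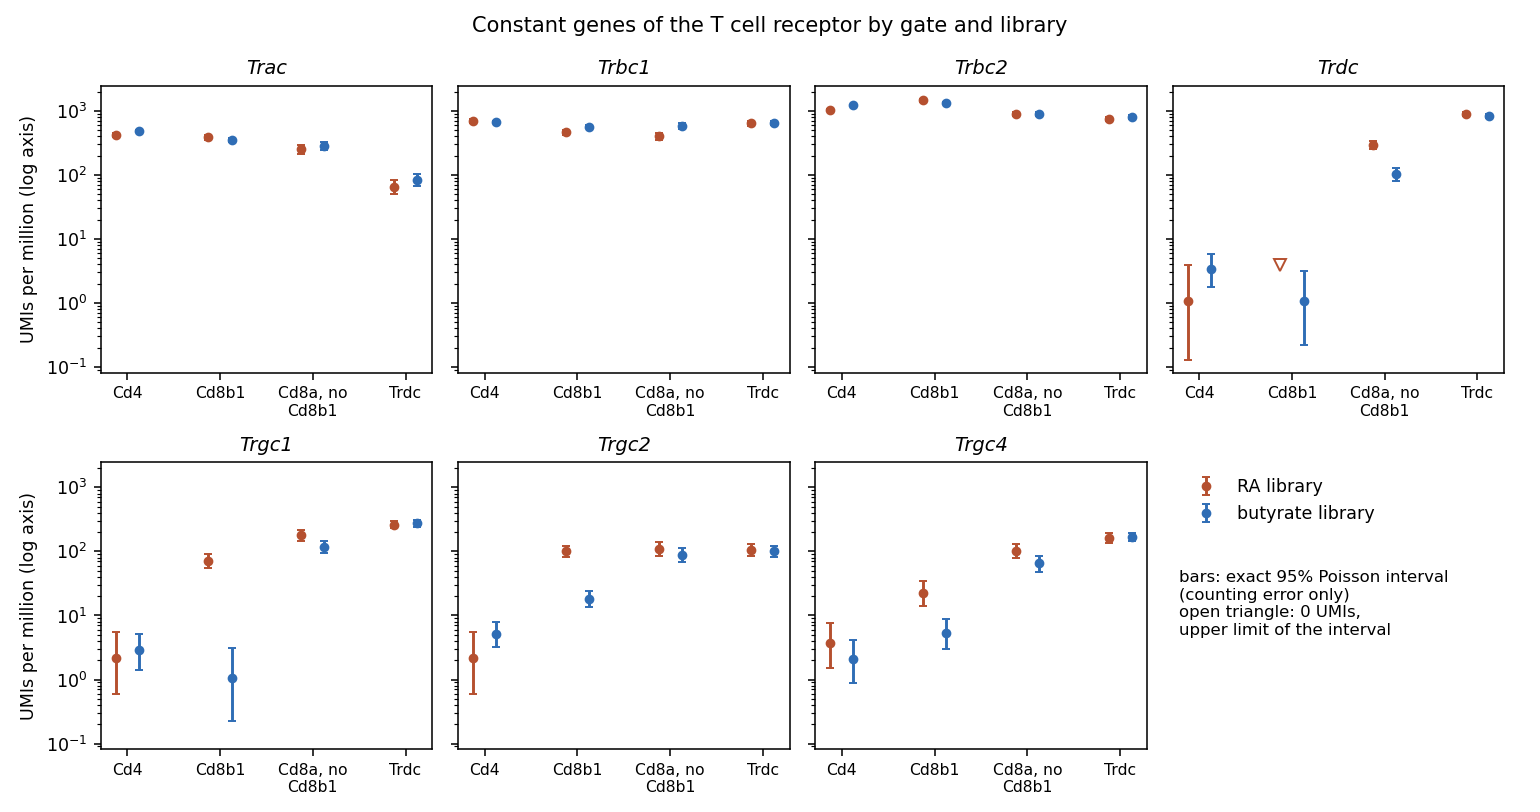
Levels of 7 constant genes in 4 gated sets (horizontal axis) in CPM (vertical log axis), RA in red and butyrate in blue, with exact 95% Poisson intervals; the open triangle is the upper limit of the interval for 0 UMIs. For Trac, Trbc1 and Trbc2 the ratios of butyrate to RA run from 0.899 (0.845 to 0.957) for Trbc2 in Cd8b1 cells upward. The highest is 1.43 (1.22 to 1.68) for Trbc1 in cells with Cd8a but no Cd8b1. Trgc1 in Cd8b1 cells stands at 71.4 in RA and 1.07 in butyrate.

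The beta constant genes were the most abundant members. Trbc1 stood at 583.5 CPM in RA and 609.9 in butyrate, and Trbc2 at 977.2 and 1128. Trbc1 made up 37.4% (36.4 to 38.4) of the UMIs of both genes in RA and 35.1% (34.4 to 35.8) in butyrate. A T cell uses a single functional beta chain, built with either constant gene, so cells could be sorted by their share. Of the cells with 10 or more Trbc UMIs, 345 in RA and 771 in butyrate, 100 and 208 had at least 90% Trbc2, and 13 and 16 had at least 90% Trbc1. The remaining 232 and 547 were mixed. Mixed cells were thus the commonest kind in both libraries, and cells with almost pure Trbc2 far outnumbered those with almost pure Trbc1.

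**Figure D2:**
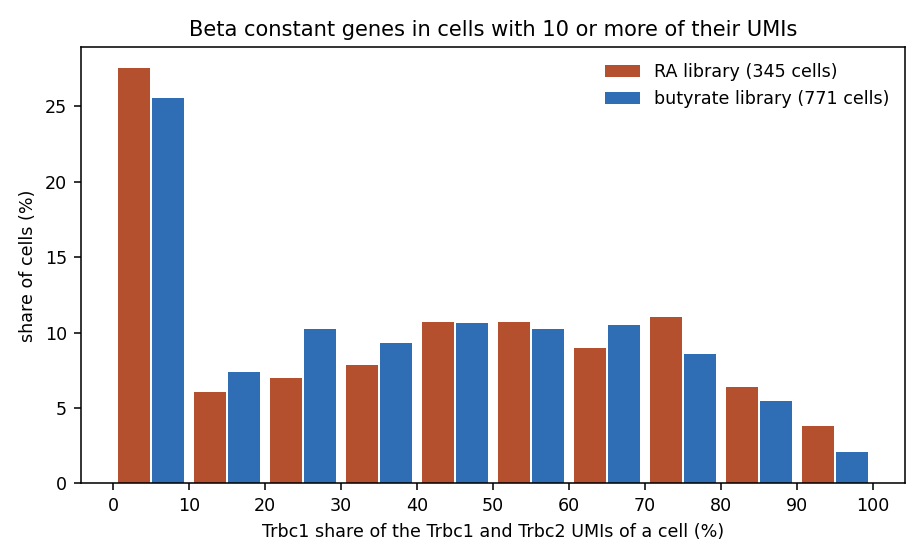
Share of cells (vertical axis, percent) by the Trbc1 share of their Trbc1 and Trbc2 UMIs (horizontal axis, percent, in bins of 10), for gated cells with 10 or more such UMIs. The peak at the left is the cells with almost only Trbc2 in both libraries, and there is no matching peak at the right.

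The Trbc1 share depended on the set. In RA it was 40.2% in Cd4 cells and 24.2% (22.2 to 26.2) in Cd8b1 cells, and in butyrate 35.2% and 30.3% (29.0 to 31.5). Cd8b1 cells thus had the lowest share in both libraries. Trdc cells had the highest, at 46.3% and 44.2%. Constant genes and V segments can also be transcribed without a complete rearrangement, in T cells and in other lymphocytes, so a UMI of one does not show that a chain is made. The B cell shares given here describe B cells only, and other lymphocytes without Cd3 were not used as background.

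Trdc (chr14:54142851-54148868, + strand), which lies within the alpha locus, encodes the delta constant chain and served to define the gamma delta set, so its level in that set is a description. A Trdc UMI was found in 13.5% (11.3 to 16.1) of RA and 8.83% (7.42 to 10.4) of butyrate gated cells. The B cell values were 0.0321% and 0.0651%. Over all gated cells Trdc stood at 139.4 CPM in RA and 75.9 in butyrate, a ratio of 0.545 (0.493 to 0.601). After each cell was thinned to 1000 UMIs, the shares were 7.78% and 4.86%. Over all gated cells Trdc was lower in the butyrate library in CPM as well as by cells. Among cells with Cd8a but no Cd8b1 it was also lower in CPM, at 296.4 (254.8 to 342.8) and 102.9 (81.1 to 128.8). By cells, the shares of that set with a Trdc UMI were 31.0% and 18.7%. Their ratio was 0.603 (0.301 to 1.19), an interval that includes 1. In Cd4 cells Trdc stood at 1.07 and 3.37 CPM, and Cd8b1 cells held 0 and 3 UMIs.

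Cells of the Trdc set kept transcripts of the other loci. Trbc UMIs were found in 97.3% of RA and 97.7% of butyrate Trdc cells. Their level was 1377 and 1451 CPM, against 1561 and 1738 in all gated cells, which include the Trdc cells. That level was 0.798 (0.746 to 0.852) and 0.772 (0.728 to 0.817) times the level of Cd4 cells. Against Cd8b1 cells it was 0.717 (0.666 to 0.771) and 0.774 (0.729 to 0.821). Trbv UMIs, in contrast, were seen in only 2 and 6 Trdc cells. Trac was present in 36 of 110 and 46 of 129 of them, at 65.2 and 83.3 CPM. The Trac level in Trdc cells was thus well below that of Cd4 cells and well above that of B cells (0.281 and 0.243). Stromal markers summed to 1241 CPM in the RA Trdc cells and 269.6 in the butyrate Trdc cells, and intraepithelial markers to 2525 and 995.3; their part in these values was not tested.

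Trgc1, Trgc2 and Trgc4 encode the gamma constant chains. A Trgc UMI was found in 26.7% of RA and 14.6% of butyrate gated cells. Within the Trdc set the libraries were close: 263 and 275 CPM for Trgc1, 106 and 99.9 for Trgc2, and 162 and 169 for Trgc4, with any Trgc UMI in 83.6% and 82.9% of cells. The ratio of summed Trgc levels in the Trdc set was 1.02 (0.900 to 1.16), against 0.504 (0.457 to 0.555) over all gated cells. The summed Trgc level was thus close to equal within the Trdc set and lower in butyrate over all gated cells. Trgc3 gave 4 and 1 UMIs in all.

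The gamma constant genes of Cd8b1 cells differed most in level between the libraries among the summed constant genes of the 4 sets, with a ratio of 0.127 (0.0945 to 0.168), from 195.0 CPM in RA to 24.7 in butyrate. Cd8b1 encodes the beta chain of CD8, carried mainly by alpha beta T cells. A Trgc UMI was found in 47 of 108 RA Cd8b1 cells (43.5%, 34.0 to 53.4) and in 31 of 279 butyrate Cd8b1 cells (11.1%, 7.68 to 15.4), a ratio of 0.255 (0.157 to 0.410). The UMIs numbered 183 and 69. These cells were otherwise alpha beta in their transcripts, since Trdc was at 0 and 3 UMIs and 44 of the 47 RA and 29 of the 31 butyrate cells also had Trac. Their stromal markers summed to 354.8 CPM in RA and 114.8 in butyrate, and the part of these in the result was not tested.

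By gene, Trgc1 gave 67 UMIs in 13 RA cells and 3 UMIs in 3 butyrate cells. Trgc2 was found in 36 and 21 cells, and Trgc4 in 17 and 11. All 3 genes were thus seen in a larger share of RA than of butyrate Cd8b1 cells. Of the 6 members seen in at least 20 Cd8b1 cells, 3 were lower in butyrate by more than 1.5-fold (Trgc2, Trgc4 and Trgv2) and 0 were higher; over all 8791 features tested there, 3.57% were lower by that fold and 13.1% higher. Cd8b1 cells had a median depth of 6781 UMIs in RA and 8491 in butyrate, and after each cell was thinned to 1000 UMIs the shares were 17.6% and 1.43%. In B cells a Trgc UMI was found in 0.129% and 0.261%.

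Markers of intraepithelial T cells in the Cd8b1 cells were unequal between the libraries and did not all run one way. The 6 listed genes, all detected in both, summed to 5051 CPM in RA and 1422 in butyrate, nearly all of it from the granule proteases Gzmb, at 2577 and 1139, and Gzma, at 2286 and 196.7. Cd160 was not lower in butyrate, at 33.0 (22.4 to 46.9) and 40.4 (33.3 to 48.6). Itgae, the integrin chain that binds epithelium, stood at 125 and 30.4. Cd8b1 cells were split by Itgae, Gzma and Cd160, a split chosen after the values were seen. With an Itgae UMI, 28 of 41 RA cells (68.3%) and 12 of 47 butyrate cells (25.5%) had a Trgc UMI. Without it, the counts were 19 of 67 (28.4%) and 19 of 232 (8.19%). Trgc UMIs were thus commoner in Itgae cells of both libraries, and commoner in RA on either side of the split.

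The split by Gzma had the same order. Among cells with a Gzma UMI, 35 of 48 in RA (72.9%) and 16 of 71 in butyrate (22.5%) had a Trgc UMI, and among cells without it 12 of 60 and 15 of 208 (7.21%) did. Without Gzma the intervals of the libraries overlapped, at 10.8 to 32.3 and 4.09 to 11.6. The share of cells with Itgae was itself higher in RA (41 of 108 cells against 47 of 279), as was that with Gzma (44.4% against 25.4%). Cd160 split the libraries unlike these genes. A Cd160 UMI was found in 15 of 108 RA cells (13.9%) and 60 of 279 butyrate cells (21.5%). A Trgc UMI was found in 7 of 15 RA cells with Cd160 (46.7%, 21.3 to 73.4) and 40 of 93 without it (43.0%), and in 14 of 60 (23.3%) and 17 of 219 (7.76%) in butyrate. Trgc UMIs were thus about as common with as without Cd160 in RA, and among Cd160 cells the intervals of the libraries overlapped. The part of epithelial residence in the difference was not tested beyond these splits.

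**Figure D3:**
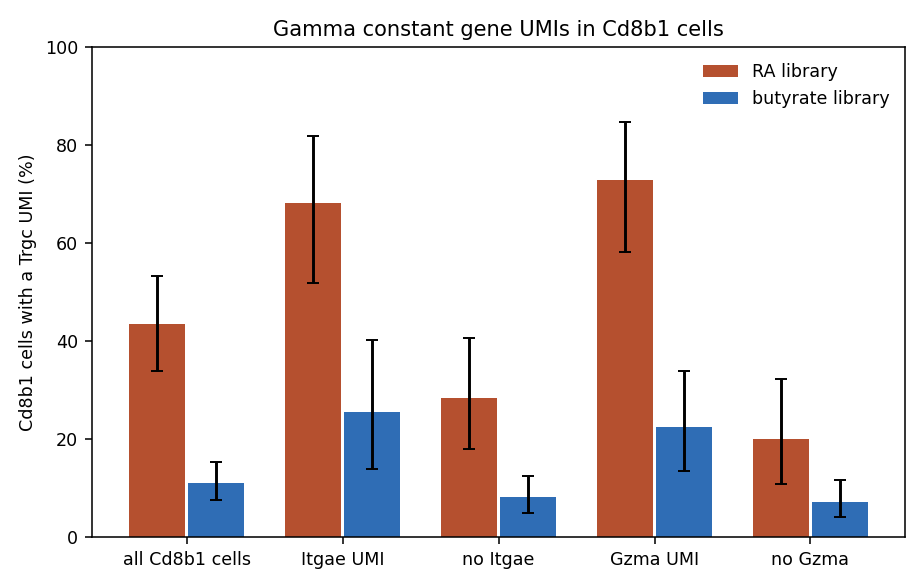
Share of Cd8b1 cells with a Trgc UMI (vertical axis, percent) in all Cd8b1 cells and in those with or without a UMI of Itgae or Gzma (horizontal axis), RA in red and butyrate in blue, with exact 95% binomial intervals. The RA bar is the higher in each of the 5 pairs, from 12 of 60 cells against 15 of 208 without Gzma to 72.9% against 22.5% in cells with it. Without Gzma the intervals overlap (10.8 to 32.3 and 4.09 to 11.6), and the split by Cd160 is not drawn.

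Cells with Cd8a but no Cd8b1, the set that holds CD8 alpha homodimer cells, were the richest in Trgc after the Trdc set, at 44 of 71 cells in RA (62.0%) and 39 of 91 in butyrate (42.9%). Of these, 23 and 22 had no Trdc UMI. Of the 8 members tested in this set, 3 were past 1.5-fold, all lower in butyrate (Trdc, Trgc1 and Trgv2), where 9.29% of all features were lower and 5.48% higher. The ratios of cell shares were 0.603 (0.301 to 1.19) for Trdc and 0.630 (0.337 to 1.16) for Trgc1, with intervals that include 1. For Trgv2, seen in 17 RA and 12 butyrate cells of the set, the ratio was 0.551, and its interval also includes 1. Stromal markers summed to 478.1 CPM in RA and 94.8 in butyrate in this set, and intraepithelial markers to 4996 and 1702; their part in these values was not tested. Cd4 cells held hardly any Trgc, in 3.23% and 3.35% of cells, and none of the 4 members tested there was past the fold, against 11.1% of all features (5.14% higher and 5.94% lower).

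V segments were seen in 35.0% (31.7 to 38.4) of RA and 36.4% (33.9 to 38.9) of butyrate gated cells, so usage below describes the minority of cells in which a V segment was captured. In B cells the share was 0.0643% and 0.130%. Usage is given as cells with a UMI of the segment among cells with any segment of its family. More than 1 segment of a family was seen in 4.31% and 5.54% of cells with a Trbv UMI and in 5.71% and 8.78% of those with a Trav UMI.

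Among the beta V segments, 20 of 35 were detected in either library. Trbv12-2 led in both, in 19 of 116 RA cells (16.4%, 10.2 to 24.4) and 72 of 271 butyrate cells (26.6%, 21.4 to 32.2). Measured per gated cell, the ratio of butyrate to RA was 2.11 (1.26 to 3.70), while the ratio of usage was 1.62 (0.968 to 2.85), an interval that includes 1. Its near copy Trbv12-1 was seen in 5 and 17 cells, and no cell had both. The ends of the 2 segments are 94.4% identical.

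Trbv13-1 was seen in 3 RA and 22 butyrate cells (2.59% and 8.12% of Trbv cells), a usage ratio of 3.14 (0.943 to 16.4). Trbv31, which lies on the far side of the constant genes, went the other way. It was seen in 12 and 9 cells, at 10.3% (5.46 to 17.4) and 3.32% (1.53 to 6.21), a usage ratio of 0.321 (0.119 to 0.830), and counted by cells it was the only Trbv segment in at least 20 cells whose usage differed by over 1.5-fold with an interval that left out 1. Counted as shares of Trbv UMIs, 3 segments met that rule: Trbv31 at a ratio of 0.310 (0.115 to 0.801), Trbv12-2 at 1.76 (1.06 to 3.07) and Trbv13-1 at 3.30 (1.003 to 17.1). UMIs of 1 cell come from the same rearrangement, so they are not independent and these intervals are too narrow. The usage ratios by cells of the other leading segments had intervals that included 1. Trbv16 was seen in 12 and 18 cells, Trbv19 in 10 and 20, Trbv3 in 8 and 20, Trbv2 in 10 and 15, and Trbv29 in 5 and 20. Over the 35 segments the numbers of cells in the 2 libraries correlated with Pearson's r 0.837 and Spearman's rho 0.926, as a description of segments that share position and capture.

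**Figure D4:**
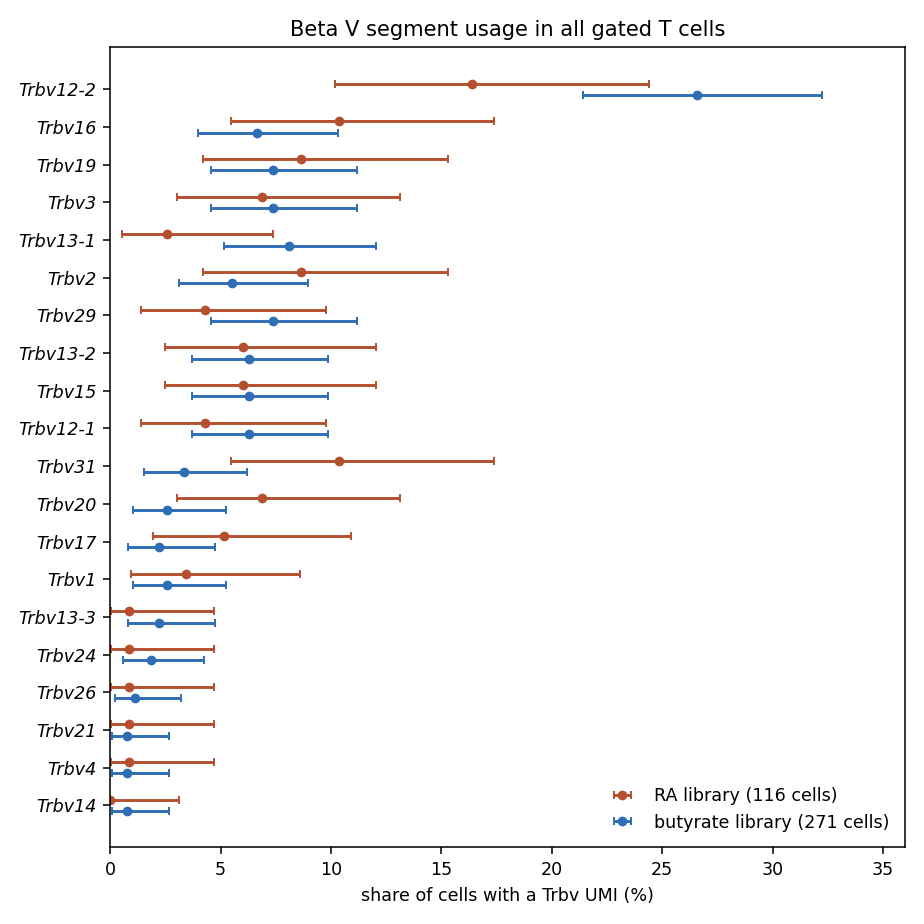
Share of cells with any Trbv UMI that had the segment (horizontal axis, percent) for the 20 detected Trbv segments (vertical axis), RA in red and butyrate in blue, with exact 95% binomial intervals. Trbv12-2 leads in both libraries, at 16.4% and 26.6%, and the intervals of most segments overlap widely.

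By set, Trbv12-2 led the Cd4 cells, with 11 of 51 RA and 29 of 114 butyrate cells, followed by Trbv2 with 6 and 10. In Cd8b1 cells of the butyrate library Trbv29 led instead, with 15 of 69 cells (21.7%, 12.7 to 33.3) against 2 of 28 in RA (7.14%, 0.877 to 23.5), and Trbv12-2 followed with 12 and 3. With 28 RA cells the difference for Trbv29 lay within the intervals, and all 15 butyrate cells came from 1 mouse, in which cells of 1 clone share a segment. In cells with Cd8a but no Cd8b1, Trbv12-2 was seen in 1 and 4 cells and Trbv3 in 0 and 2. In Trdc cells, Trbv13-2 was seen in 0 and 2.

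Of the alpha V segments, 60 of 130 were detected. Trav3-3 led in both libraries, in 21 of 105 RA cells (interval 12.8% to 28.9%) and 27 of 205 butyrate cells (13.2%, 8.86 to 18.6), and also led the Cd4 cells (5 and 10), the Cd8b1 cells (5 and 8) and the cells with Cd8a but no Cd8b1 (3 and 3). Its transcript shares 12.4% of its 90-base windows with the duplicate segments Trav3d-3 and Trav3n-3. Trav16n followed in 6 and 15 cells, Trav14d-3-dv8 in 7 and 13, Trav16d-dv11 in 8 and 11, and Trav13-5 in 6 and 8. None of these 5 differed in usage beyond its interval. Trav16n and Trav16d-dv11 share 40.6% and 42.0% of their windows with other members, so their counts are the least certain of the 5. The second segment by set was Trav14d-3-dv8 in Cd4 cells (3 and 8), Trav16n in Cd8b1 cells (1 and 6) and Trav3-1 in cells with Cd8a but no Cd8b1 (0 and 2). In Trdc cells Trav13d-4 was seen in 0 and 3.

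The Trav segments span more than a megabase upstream of Trac. Divided into 3 groups by distance, the 44 segments nearest to Trac held 53.2% (43.4 to 62.7) of the RA and 42.9% (36.4 to 49.7) of the butyrate detections. The middle 43 held 32.4% and 31.0%, and the farthest 43 held 14.4% (8.47 to 22.4) and 26.1% (20.5 to 32.3). The intervals of the libraries overlapped in every group. The share of 90-base windows that a segment has in common with other members was unequal among these groups, with medians of 11.4% in the nearest, 85.3% in the middle and 98.8% in the farthest, and 1, 19 and 20 segments wholly shared. Its part in the fall of detections with distance was not tested. Among the alpha J segments, Traj18, which the invariant natural killer T cell receptor uses, was seen in 8 and 12 cells, and Traj49 in 8 and 6. None of the Traj18 cells had a UMI of Trav11 or Trav11d, the V segments of that receptor. Trav11 was seen in only 0 RA and 1 butyrate gated cells, so whether the Traj18 cells carry that receptor cannot be told.

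Trgv2 led the gamma V segments, in 55 of 88 RA cells (62.5%) and 50 of 98 butyrate cells (51.0%). Trgv1 came next, in 20 (22.7%, 14.5 to 32.9) and 44 (44.9%, 34.8 to 55.3), a usage ratio of 1.98 (1.14 to 3.54). In the Trdc set the contrast was larger. There Trgv1 was seen in 9 of 45 RA cells (interval 9.58% to 34.6%) and 27 of 49 butyrate cells (55.1%, 40.2 to 69.3), a ratio of 2.76 (1.26 to 6.66), while Trgv2 was seen in 26 and 22. Trgv2 thus led the Trdc cells of RA and Trgv1 those of butyrate. Of the 10 members tested in Trdc cells, 2 were past 1.5-fold, Trgv1 and Trdv4, both higher in butyrate, where 3.49% of all features were higher and 9.43% lower. The 10 include Trdc, which defines the set and so could not differ. Trdv4 was seen in 12 RA and 28 butyrate cells of the set, a ratio of 1.99. A UMI of any Trdv segment was found in 15.5% and 26.4% of them, a ratio of 1.71 (0.927 to 3.26), an interval that includes 1.

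In both CD8 sets Trgv2 led. In Cd8b1 cells it was seen in 15 of 20 RA and 11 of 16 butyrate cells with a Trgv UMI, and 14 and 10 of those also had Trac. In cells with Cd8a but no Cd8b1 the counts were 17 of 23 and 12 of 22. Trgv6 was seen in 7 and 11 gated cells, Trgv4 in 8 and 8, and Trgv7, which many intraepithelial gamma delta cells use, in 7 and 1. Trgv7 was below 20 cells in all and entered no comparison. Trgv1 and Trgv2 UMIs occurred together in 4 RA and 9 butyrate cells.

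The constant gene seen in most cells of Trgv1, Trgv2 and Trgv6 was the one next downstream in both libraries. As background, the share is given among cells that had another Trgv segment and not the one named. For Trgv1 the gene is Trgc4, found in 17 of 20 RA cells (85.0%, 62.1 to 96.8) and 31 of 44 butyrate cells (70.5%, 54.8 to 83.2), against 47.1% (34.8 to 59.6) and 38.9% (25.9 to 53.1) of the other Trgv cells. For Trgv2 it is Trgc2, found in 35 of 55 (63.6%, 49.6 to 76.2) and 37 of 50 (74.0%, 59.7 to 85.4), against 45.5% (28.1 to 63.6) and 41.7% (27.6 to 56.8). The intervals were thus apart for Trgv1 in both libraries and for Trgv2 in butyrate, and overlapped for Trgv2 in RA. Trgv6 lies before Trgc1, which 6 of 7 and 8 of 11 of its cells had, with intervals that overlapped those of the other Trgv cells. The other constant genes were also frequent: Trgc2 was found in 9 of 20 and 26 of 44 Trgv1 cells, and Trgc4 in 24 of 55 and 24 of 50 Trgv2 cells. Trgv7 also lies before Trgc1, but its 7 RA cells had Trgc1 in 6, Trgc4 in 6 and Trgc2 in 5, and the single butyrate cell had Trgc1 and Trgc2. Trgv4 cells had Trgc1 in 3 of 8 and 1 of 8, and Trgc4 in 6 of 8 and 4 of 8.

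**Figure D5:**
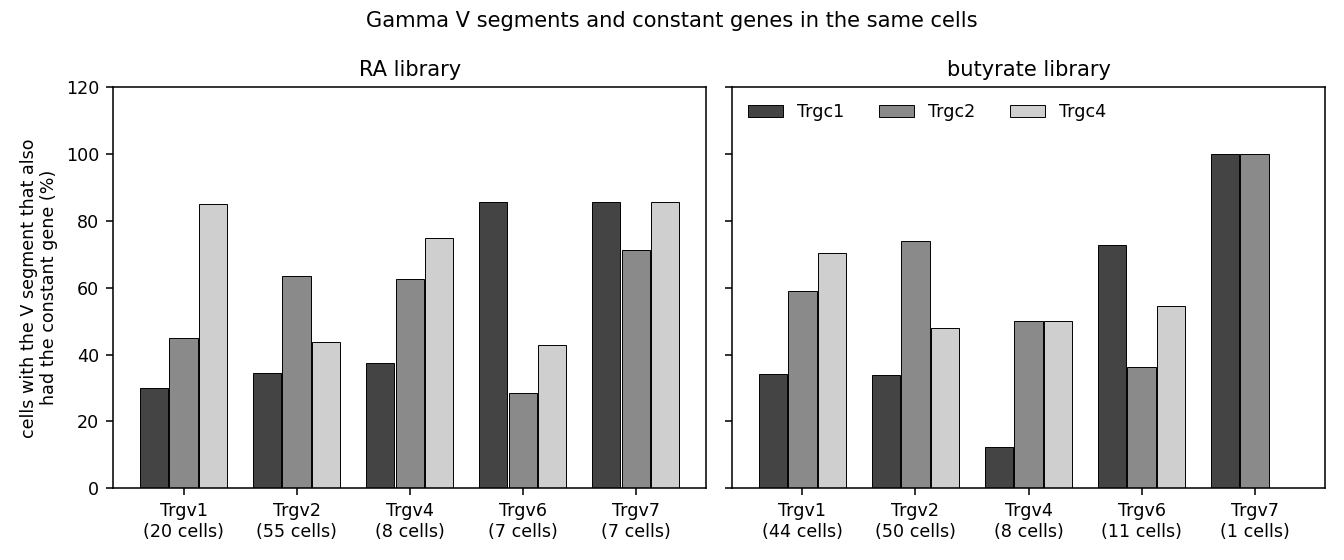
Share of cells with a gamma V segment (horizontal axis, with the number of cells) that also had a UMI of Trgc1, Trgc2 or Trgc4 (vertical axis, percent), in the RA (left) and butyrate (right) library. Trgv1 is paired most often with Trgc4, Trgv2 with Trgc2, and Trgv6 with Trgc1 in both libraries; the butyrate Trgv7 bars stand for 1 cell.

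Trdv4 led the delta V segments, in 18 of 27 RA cells (66.7%) and 36 of 49 butyrate cells (73.5%), of which 12 and 28 were Trdc cells. Trdv2-2 followed in 4 and 8 cells, Trdv1 in 3 and 4, Trdv3 in 1 and 1, and Trdv5 in 1 and 1. Trdv2-2 shares 42.9% of its windows with Trdv2-1, so these 2 cannot be fully separated. Within the Trdc set, Trdv4 was found in 3 of 6 RA Trgv6 cells (interval 11.8% to 88.2%) against 8.65% (4.03 to 15.8) of the other Trdc cells, and in 7 of 9 in butyrate (77.8%, 40.0 to 97.2) against 17.5% (11.2 to 25.5). The intervals overlapped in RA and not in butyrate. That pairing is known from gamma delta cells that make interleukin 17.

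Markers were counted in Trdc cells with Trgv6 or Trdv4 and in those with Trgv2 or Trgv1, in a grouping chosen after the values were seen. The groups share cells: 3 RA and 4 butyrate cells of the first also had Trgv2, and 0 and 3 had Trgv1. Cd163l1, a scavenger receptor of interleukin 17 producing gamma delta cells, was found in 12 of 15 RA and 23 of 30 butyrate cells with Trgv6 or Trdv4, against 2 of 26 and 3 of 22 with Trgv2. Il23r, the interleukin 23 receptor chain, was found in 12 of 15 and 23 of 30, against 3 of 26 and 5 of 22. Cd160, a marker of intraepithelial lymphocytes, ran the other way, in 1 of 15 and 5 of 30 against 16 of 26 and 13 of 22. Trgv1 cells resembled the Trgv2 cells in Cd160 and Cd163l1, with Cd160 in 5 of 9 and 18 of 27 and Cd163l1 in 0 of 9 and 1 of 27. Counts of Il23r in Trgv1 cells are not reported here. For Cd163l1 and Cd160 the order of the groups was the same in both libraries.

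The signalling genes behind the receptor were compared over all gated cells first. Of 34 listed genes of the receptor complex and its proximal signalling, 28 are not used by the gates. All 28 had at least 50 UMIs, 15 were higher and 13 lower in butyrate, and 0 were past 1.5-fold, against 12.2% of the 11072 features tested by CPM, 2.88% higher and 9.31% lower. Their median ratio was 1.06, from 0.694 to 1.34, and that of all features was 0.965. The highest ratios were those of Themis, a regulator of receptor signalling in thymocytes, at 1.34 (1.25 to 1.44), Cd5 at 1.30 and the phosphatase Ptpn6 at 1.24. The lowest were the adaptor Sit1 at 0.694 (0.498 to 0.971), Nr4a1, which receptor signalling induces, at 0.717 (0.663 to 0.777), and Vav1, an exchange factor, at 0.753.

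Within the sets, the members of the signalling list past the fold were few, and all of them are named here after their values were seen. In Cd4 cells they numbered 0 of 28, where 4.61% of all features were higher and 6.59% lower. In Cd8b1 cells 1 of 26 was higher (Ptpn6, ratio 1.82) and 3 were lower, against 6.8% and 7.3% of all features. The 3 were Nr4a1, at 155.6 CPM in RA and 78.0 in butyrate, the kinase Zap70 (ratio 0.616) and the phospholipase Plcg1 (0.620). In cells with Cd8a but no Cd8b1, 3 of 25 were higher, namely the costimulatory receptor Cd28 (2.46), the adaptor Trat1 (2.16) and the adhesion receptor Cd2 (1.78), and Zap70 was lower (0.593), against 7.4% and 8.59%. In Trdc cells 2 of 22 were higher, Cd28 (1.91) and the kinase Prkcq (1.85), and 0 lower, against 6.18% and 6.23%.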

How the data were processed

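Gene counts per cell barcode were analysed as deposited by the authors: whole-number UMI counts, not normalized. Per the submitters' processing notes Cell Ranger 6.0.1, Seurat 4.0.3 and 4.0.4 and mm10 were used, whereas the file headers name Cell Ranger 7.1.0. Whether intronic reads were counted, and the handling of reads matching several genes, is not given in the sources used here.

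Of 10140 RA and 9959 butyrate barcodes, those under 500 UMIs or 250 genes, or with over 25% of UMIs from mitochondrial genes, were dropped. T cells were gated as described. Reference cells were B cells (at least 2 Cd79a, no Cd3 UMI). Some sequences and a reference population are not reported here. Doublets were not removed; an alternative removed the highest Scrublet scores (scanpy 1.11.5), since its own threshold marked 0 and 2 barcodes. UMIs were summed per library and set and scaled to CPM (counts per 1000000 UMIs). Intervals were exact: Poisson for levels, Clopper-Pearson for shares, conditional binomial for ratios (scipy 1.17.1). No test was made between the libraries, with 1 mouse each. The fold calculation was tested on simulated data.

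All 266 members were matched by gene ID to GENCODE M21. Named were all constant genes, the 5 commonest segments of each V family, segments in at least 20 cells whose usage differed over 1.5-fold with an interval leaving out 1, the 2 leading segments per set, left out where 1 or 2 cells tied, and the 3 highest and 3 lowest signalling genes. Members and lists were chosen with earlier results of these data known.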

Additional observations from a re-analysis of the deposited data

Results flagged for a closer look

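T cell receptor transcripts were also found in barcodes that the gate left out, above the B cell level of 0.161% (RA) and 0.152% (butyrate) for Trac. These barcodes were chosen for Cd3 UMIs and the B cells for having none, so that order follows in part from the choice. Among gated cells 71.8% and 78.8% had a Trac UMI. Barcodes above the mitochondrial limit with at least 2 Cd3 UMIs numbered 18 in RA and 13 in butyrate, and 66.7% and 30.8% of them had a Trac UMI. Barcodes with both Cd3 and Cd79a UMIs numbered 73 and 137, and 67.1% and 78.1% of them had a Trac UMI, at median depths of 11086 and 11247 UMIs, above the 6027 and 6169 of gated cells. Of those with Cd79a, 11 and 17 also had Trdc.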

How the results depend on the processing

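No paired analysis was possible because each group is 1 library. Among the 8 main results only the Trac and Trdc level ratios have a direction, and 0 of their values under other settings changed it. The rest are shares within 1 library. Of 56 values of the 8 main results under other settings, 50 stayed within the 95% interval of the value reported. The other 6 came from changes of unit or depth. Counted over cells with UMIs of only 1 beta constant gene, Trbc1 had 12.3% of RA and 8.27% of butyrate cells. Thinned to 1000 UMIs per cell, 7.78% and 4.86% of gated cells had a Trdc UMI, and 7.04% and 7.94% a V segment UMI, with the order of the libraries as before thinning. The cause was not tested for the Trbc1 share; thinning by construction removes UMIs.

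For 4 results added after seeing the data, the same settings were run. They left the Trgc share of Cd8b1 cells between 41.0% and 44.3% in RA and 10.2% and 11.9% in butyrate over the UMI floor, mitochondrial limit, Cd3 minimum, B cell exclusion, Scrublet and exclusive sets. Trgv1 in Trdc cells ranged from 15.6% to 21.4% in RA and 53.2% to 58.8% in butyrate. Trbv12-2 per gated cell ranged from 1.98 to 2.53 and Trbv13-1 from 3.80 to 4.17.

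With 1 mouse per group, mouse, diet, arthritis, dissociation and library cannot be told apart. V segments seen in few cells, clones of 1 mouse and near-copy genes limit usage further.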
